A study of Homo sapiens with 2 samples.

Results

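The zinc finger genes of chromosome 19 were taken as the protein-coding genes of that chromosome whose symbol is ZNF followed by a number in the RefSeq annotation of GRCh38.p14. This rule used no measured value, although the set was chosen with earlier results of these data known. It gave 250 of the 1451 protein-coding genes of the chromosome, which are part of 20056 protein-coding genes in all. Of these, 4 had a hyphenated symbol (ZNF559-ZNF177, ZNF816-ZNF321P, ZNF765-ZNF761 and ZNF470-DT). Membership rests on the symbol, and the encoded proteins were not examined. The binding of HOXA5 was profiled by CUT & Tag, in which an antibody directs a transposase to cut and tag the DNA near its target, in TFK-1 cells, a human cell line of extrahepatic cholangiocarcinoma. LV-HOXA5 cells stably expressed Flag-tagged HOXA5 from a lentivirus, LV-HOXA5-NC cells carried the corresponding negative control lentivirus, and both were probed with the same anti-Flag antibody. There was 1 library per condition, made from 1000000 cells, so that differences between them have no replicates behind them and no test was made. The LV-HOXA5 library held 15778555 fragments and gave a list of 8043 peaks, with 472 on chromosome 19, whereas the LV-HOXA5-NC library held 1948734 fragments (12.4% of that depth) and gave 635 peaks, with 33 on chromosome 19.

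Zinc finger proteins of the C2H2 type hold a zinc ion between cysteine and histidine residues in each finger, and rows of fingers read DNA sequence. Many of the genes on chromosome 19 also encode a KRAB domain, which binds the corepressor TRIM28 and through it the histone methyltransferase SETDB1 and HP1 proteins, and several are known to silence transposable elements. These genes arose by repeated tandem duplication, so that they stand in rows of related neighbors. HOXA5 is a homeodomain transcription factor, and homeodomains typically recognize DNA with a TAAT core.

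Of the 250 zinc finger genes, 24 had an end no more than 1 kb from an LV-HOXA5 peak (9.60%, exact 95% binomial interval 6.25% to 13.9%), beside 13.0% of all protein-coding genes. Among the other 1201 protein-coding genes of chromosome 19, 210 had such a peak (17.5%, interval 15.4% to 19.8%), and the intervals of the zinc finger genes and of the others did not overlap. With peaks within 3 kb of an end or anywhere inside the gene, 39 zinc finger genes (15.6%, interval 11.3% to 20.7%) and 297 other genes of the chromosome (24.7%, interval 22.3% to 27.3%) had a peak, beside 20.7% of all protein-coding genes, again with intervals that did not overlap. At both distances, the share of all protein-coding genes lay inside the interval of the zinc finger genes. Within 3 kb or inside, it was just below the upper bound (20.66% against 20.70%). The other genes of chromosome 19 had higher shares than genes off the chromosome without a ZNF number, which had 12.7% and 20.5%. The remaining 211 zinc finger genes had no peak by either measure. The 267 protein-coding genes with a ZNF number on other chromosomes had intermediate shares, with 38 (14.2%, interval 10.3% to 19.01%) and 53 (19.9%, interval 15.2% to 25.1%). The median zinc finger gene lay 107272 bp from the nearest LV-HOXA5 peak, and the median other gene of the chromosome 32949 bp. When only peaks with at least the median fold of the list were kept, the shares within 1 kb fell to 5.20% for zinc finger genes (interval 2.80% to 8.73%) and 8.49% for the others (interval 6.98% to 10.2%), and these intervals overlapped. Intervals cover counting error only, and neighboring genes that share a peak are not independent.

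**Figure D1:**
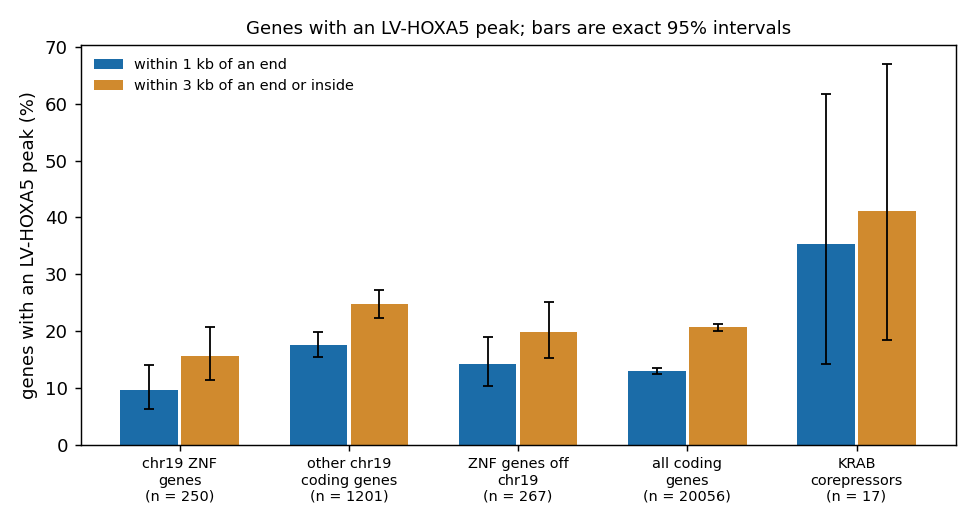
Share of genes with an LV-HOXA5 peak, in percent on the vertical axis, for 5 sets of genes, within 1 kb of a gene end (blue) and within 3 kb or inside (orange); lines are exact 95% binomial intervals. The blue bar of the zinc finger genes of chromosome 19 stands at 9.60% and that of the other coding genes of the chromosome at 17.5%.

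Within 1 kb, the gap was smaller when a gene was taken to begin at any listed start. The RefSeq promoter table listed at least 1 start for 219 of the zinc finger genes and 966 of the other genes, including starts that lie inside a gene. Measured from any listed start, 30 of 219 zinc finger genes (13.7%, interval 9.44% to 18.97%) and 168 of 966 other genes (17.4%, interval 15.1% to 19.9%) had a peak within 1 kb, and these intervals overlapped. Within 3 kb of a listed start or inside the gene, 34 of 219 (15.5%, interval 11.0% to 21.0%) and 223 of 966 (23.1%, interval 20.5% to 25.9%) had one. These shares were near those from gene ends, and their intervals overlapped only in a narrow range. Several starts were listed for 36 zinc finger genes (16.4%) and 229 other genes (23.7%). Among genes with a single listed start, 22 of 183 zinc finger genes (12.02%, interval 7.69% to 17.6%) and 114 of 737 other genes (15.5%, interval 12.9% to 18.3%) had a peak there.

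No LV-HOXA5-NC peak lay within 1 kb of an end of the 250 zinc finger genes, and 0.0698% of all protein-coding genes had one. Within 3 kb or inside, the count was also 0, beside 0.648% of all protein-coding genes. A count of 0 of 250 allows a share of up to 1.20%. The closest control peak was 9481 bp from an end of any zinc finger gene, and none of the peaks described here overlapped a control peak. Depth limits what this absence can show. Scaled to the control depth, the peaks within 1 kb of a zinc finger gene had a median of 2.35 fragments at the summit, and the lowest pileup in the control list was 4 fragments. Only 5 of the 37 peaks within 3 kb of or inside these genes reached 4 fragments after scaling, those at ZNF146, ZNF837, ZNF749, ZNF507 and ZNF574, so for the others a missing control peak was not informative at this depth.

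The peaks at these genes sat at the start. There were 22 different peaks within 1 kb of the 24 genes, and 9 of them covered a gene end. For 21 of the 24 genes the strand was known, and in 20 of these the peak lay within 1 kb of the start. The exception was ZNF544, whose far end was 968 bp from a peak that lay 31 bp from the start of its neighbor ZNF8. Across all genes with a known strand, 20 of 219 zinc finger genes (9.13%) had a peak at the outermost start and 1 (0.457%, interval 0.0116% to 2.52%) at the far end, while among other genes of the chromosome these numbers were 160 of 966 (16.6%) and 24 (2.48%, interval 1.60% to 3.67%). In both sets peaks at the far end were thus fewer than at the start. As background, the zinc finger protein ZNF274 is known to recruit SETDB1 to the 3′ ends of many zinc finger genes.

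Summits tended to lie just upstream of the nearest listed start. That start can lie inside the gene, as in ZNF146, whose summit was upstream of the listed start but inside the outer end. Over the 30 genes with a peak within 1 kb of a listed start, the median summit position was −159 bp (95% order interval −214 to −104 bp, negative values being upstream), and 22 of the 30 summits (73.3%) were upstream. The other genes of the chromosome had a median of −230 bp (interval −273 to −182 bp) over 169 pairs of peak and gene, with 131 (77.5%) upstream. All 30 summits of the zinc finger genes fell between −536 and 403 bp, and those of the 169 pairs of the other genes ran from −1319 to 1039 bp. A range widens with the number of pairs, so these ranges do not compare the spread of the sets.

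**Figure D2:**
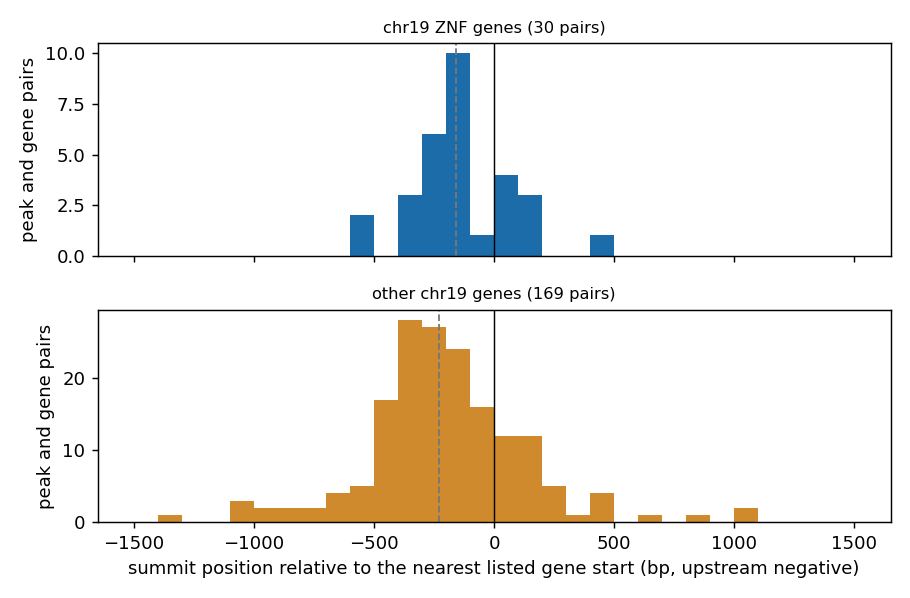
Number of pairs of LV-HOXA5 peak and gene by the distance of the summit from the nearest listed start, in bp with upstream negative, for zinc finger genes (top) and other genes of chromosome 19 (bottom). Dashed lines mark the medians, −159 and −230 bp.

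The peaks of the zinc finger genes were close to those of the other genes of the chromosome in fold. Their median pileup and −log10 q-value were lower, with intervals that overlapped. Their median fold enrichment, measured against the background around each peak in the same library, was 4.70 (interval 4.07 to 5.39, n = 22 peaks), beside 4.74 (interval 4.61 to 5.03) for the 161 peaks at ends of other genes of the chromosome and 4.88 for all 2107 peaks at protein-coding ends. The median pileup, which counts fragments over the summit without scaling for depth, was 19 (interval 14 to 26) at zinc finger genes and 23 (interval 22 to 25) at the other genes of the chromosome. The local background recovered from these values had a median of 3.24 fragments (interval 2.33 to 4.18) at zinc finger genes and 4.33 (interval 4.04 to 4.68) at the others. Over all protein-coding ends, the median pileup was 17 and the median background 2.58, both below the zinc finger genes. The median −log10 q-value was 5.42 (interval 4.61 to 7.72) at zinc finger genes, 7.36 (interval 6.13 to 8.40) at the other genes of the chromosome and 5.49 at all protein-coding ends. The median peak length was 391 bp against 449 bp.

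The highest fold enrichment within 1 kb of an end was at ZNF146, which encodes a protein made up almost only of zinc fingers. Its peak (chr19:36214598-36215108) covered the outer end of the gene with 47 fragments at the summit (34.5 to 62.5 by the exact 95% Poisson interval), an 8.26-fold enrichment and a −log10 q-value of 25.9, and its fold was above that of 94.3% of the list. It also covered a start of ZNF565, a zinc finger gene read from the opposite strand, which it reached 30820 bp inside. ZNF837 had the second highest pileup, 44 fragments (interval 32.0 to 59.1) with a 5.55-fold enrichment at a peak that covered its start (chr19:58380826-58381574).

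Some peaks served more than 1 gene. A peak of 26 fragments and a 6.11-fold enrichment (chr19:58278423-58278924) lay 31 bp from the start of ZNF8 and 968 bp from the far end of ZNF544. Between ZNF490 and ZNF791, which are read in opposite directions, a peak of 14 fragments and a 5.32-fold enrichment (chr19:12610906-12611457) lay 93 bp from the former and covered the start of the latter. The peak at ZNF473, which encodes a factor of histone mRNA 3′ end formation, had 27 fragments and a 5.86-fold enrichment and also lay within 1 kb of VRK3, a kinase gene. The peak at ZNF524 was the longest, at 1155 bp with 32 fragments and a 3.97-fold enrichment, and was shared with FIZ1. In all, 4 of the 22 peaks had another protein-coding end within 1 kb, 5 had an end of a non-coding gene or pseudogene, and 14 had no other gene end that near.

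The other genes of highest fold had between 12 and 28 fragments. ZNF226 had 17 fragments and a 5.41-fold enrichment 98 bp from its start, and ZNF77, which the study lists among genes with a peak, had 16 fragments and a 5.39-fold enrichment 121 bp from its start. ZNF699 had 12 fragments and a 5.33-fold enrichment, ZNF260 had 19 and a 4.94-fold enrichment, and ZNF784 had 28 and a 4.93-fold enrichment. The counting intervals of these 5 genes overlapped, those farthest apart being 6.20 to 21.0 fragments at ZNF699 and 18.6 to 40.5 at ZNF784, which met only in a narrow range. Their local backgrounds differed as well, at 1.44 fragments for ZNF699 and 4.89 for ZNF784. At the weak end by fold, beside ZNF524 above, ZNF274 had 13 fragments and a 3.99-fold enrichment 21 bp from its start. ZNF557 had 9 fragments and a 3.85-fold enrichment, and ZNF414 had 11 fragments and a 3.58-fold enrichment.

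**Figure D3:**
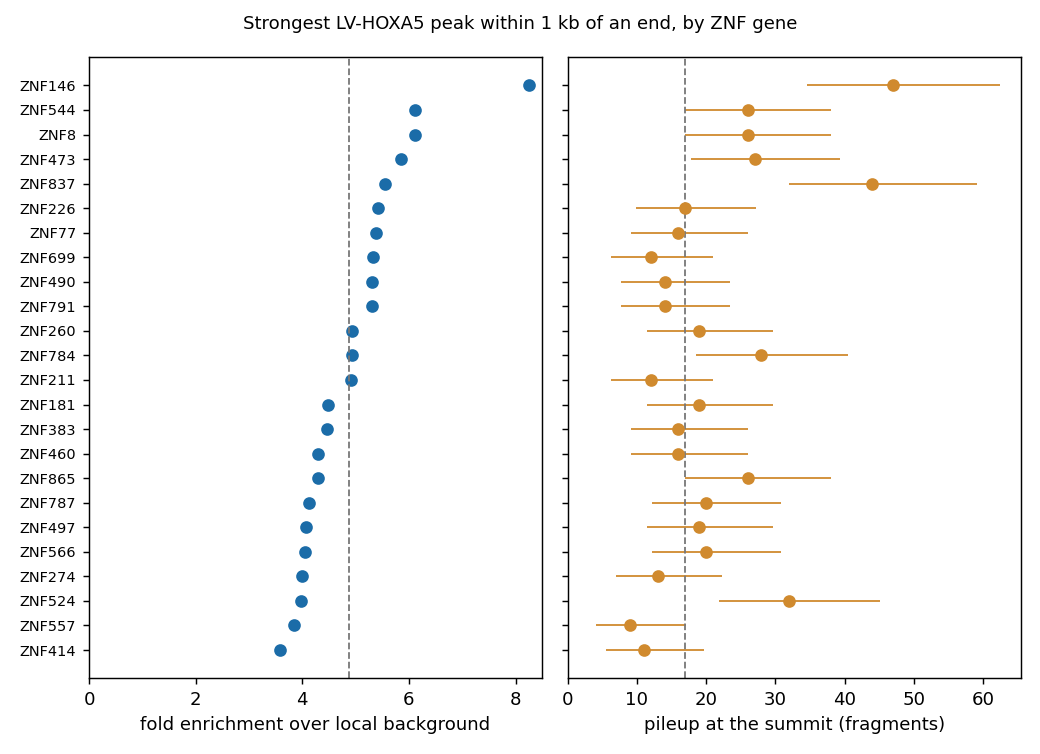
Fold enrichment (left) and pileup at the summit in fragments with exact 95% Poisson intervals (right) of the strongest LV-HOXA5 peak, for the 24 zinc finger genes with one within 1 kb of an end. Dashed lines mark the medians of all peaks at protein-coding ends, 4.88-fold and 17 fragments; ZNF146 stands highest at 8.26-fold and 47 fragments.

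A further 15 genes had a peak only beyond 1 kb of their ends, 2 of them (ZNF302 and ZNF114) between 1 and 3 kb and 13 inside the gene. Of these 13, 9 had their peak within 1 kb of a start listed inside the gene, and in 7 the peak covered that start. ZNF749 carried the highest fold of all, with 41 fragments (interval 29.4 to 55.6) and an 8.68-fold enrichment at a peak that covered a start inside the gene, 6502 bp from its nearer end (chr19:57435067-57435709). ZNF331, an imprinted gene, had a peak of 25 fragments and a 7.38-fold enrichment over an internal start and another of 15 fragments and a 4.34-fold enrichment 7993 bp from any listed start. ZNF558 had 17 fragments and a 7.38-fold enrichment 85 bp from an internal start, within 1 kb of MBD3L1. ZNF507 was different, with 39 fragments and a 7.05-fold enrichment at a peak 27768 bp from a listed start. The other internal peaks away from a start belonged to ZNF730, ZNF254 and ZNF536.

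The sequences below are the 250 bases before a listed start, 5′ to 3′ on the strand of the gene. They are given for the 6 genes whose peak within 1 kb of an end held this stretch entirely. In ZNF146 the listed start and the stretch before it lie inside the gene, and the peak covered the outer end as well. The sequences show the DNA before the listed start that these peaks covered, and were picked as promoter stretches. Capitals mark TAAT or its reverse complement ATTA. They are taken from RefSeq (GRCh38.p14).
ZNF146, chr19:36214856-36215105, plus strand: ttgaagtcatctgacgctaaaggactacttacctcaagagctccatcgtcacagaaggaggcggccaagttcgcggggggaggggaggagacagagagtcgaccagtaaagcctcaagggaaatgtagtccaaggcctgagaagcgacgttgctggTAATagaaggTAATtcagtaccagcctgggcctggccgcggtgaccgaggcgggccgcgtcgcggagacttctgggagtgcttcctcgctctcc
ZNF837, chr19:58381031-58381280, minus strand: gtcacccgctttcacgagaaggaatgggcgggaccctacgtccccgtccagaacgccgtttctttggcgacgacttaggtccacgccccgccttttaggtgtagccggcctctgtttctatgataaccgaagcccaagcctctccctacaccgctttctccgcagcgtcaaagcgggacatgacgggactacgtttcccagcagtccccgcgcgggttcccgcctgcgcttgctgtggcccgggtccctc
ZNF699, chr19:9309839-9310088, minus strand: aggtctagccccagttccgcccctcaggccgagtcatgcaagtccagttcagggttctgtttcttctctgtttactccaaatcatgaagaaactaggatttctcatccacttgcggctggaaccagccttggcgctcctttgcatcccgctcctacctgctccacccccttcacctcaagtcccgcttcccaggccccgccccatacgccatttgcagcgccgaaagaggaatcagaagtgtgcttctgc
ZNF784, chr19:55624567-55624816, minus strand: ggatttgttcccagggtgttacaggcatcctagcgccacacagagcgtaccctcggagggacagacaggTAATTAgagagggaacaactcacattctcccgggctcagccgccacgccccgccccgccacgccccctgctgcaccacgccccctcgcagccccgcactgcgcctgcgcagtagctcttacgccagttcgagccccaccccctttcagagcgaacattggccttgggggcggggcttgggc
ZNF181, chr19:34733993-34734242, plus strand: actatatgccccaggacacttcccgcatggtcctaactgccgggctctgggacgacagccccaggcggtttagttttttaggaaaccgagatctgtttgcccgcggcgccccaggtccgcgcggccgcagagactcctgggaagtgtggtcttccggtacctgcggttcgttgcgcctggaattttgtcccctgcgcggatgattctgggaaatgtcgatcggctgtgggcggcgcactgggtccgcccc
ZNF566, chr19:36489562-36489811, minus strand: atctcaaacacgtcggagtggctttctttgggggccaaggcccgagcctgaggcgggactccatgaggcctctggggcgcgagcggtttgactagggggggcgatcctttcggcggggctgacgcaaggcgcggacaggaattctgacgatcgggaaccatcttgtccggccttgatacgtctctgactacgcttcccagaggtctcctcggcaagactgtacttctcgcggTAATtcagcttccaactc

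Among these, ZNF146 and ZNF784 each held the core 2 times, in ZNF784 as a single TAATTA, ZNF566 held it 1 time, and ZNF837, ZNF699 and ZNF181 did not hold it. The share of G and C ran from 56.4% in ZNF699 to 66.0% in ZNF784, and CpG from 10 in ZNF699 to 25 in ZNF837. Over longer windows of 300 bases, the medians of all genes of the table were 58.3% G and C and 14 CpG. Motifs were counted on both strands in windows of 300 bases (250 before and 50 after the start), 1 window a gene, and TAATTA contains TAAT. TAAT was present in 10 of 21 zinc finger genes with a peak within 1 kb (47.6%, interval 25.7% to 70.2%) and 84 of 198 without (42.4%, interval 35.4% to 49.6%), beside 51.1% of the windows of all 27305 genes of the table. TAATTA was present in 2 of the 21, ZNF784 and ZNF274, and in 1 of the 198, ZNF844, beside 5.00% of all windows. In ZNF784 it lay inside the peak and in ZNF274 outside it. Among the other genes of the chromosome, 1 of 179 with a peak (0.559%) and 17 of 787 without (2.16%) held it, the opposite order. TGATTA was present in 0 of the 21, in 11 of the 198 (5.56%) and in 7.84% of all windows. A match is a string of letters only, and with 21 windows the shares have wide intervals.

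Zinc finger genes with a peak had a median of 23 CpG in 300 bases (range 13 to 40), beside 20 (range 2 to 49) for zinc finger genes without a peak and 14 for all windows of the table, with ranges that overlapped. Among zinc finger genes with at least 14 CpG, 20 of 175 (11.4%, interval 7.12% to 17.1%) had a peak within 1 kb, and among those with fewer 1 of 44 did (2.27%, interval 0.0575% to 12.02%). The other genes of the chromosome showed the same order, with 156 of 630 (24.8%, interval 21.4% to 28.3%) and 23 of 336 (6.85%, interval 4.39% to 10.1%). These shares use gene ends and not listed starts, and the part of CpG content in the difference between zinc finger and other genes was not tested. The median share of G and C was 63.7% in zinc finger genes with a peak and 59.3% in those without. The zinc finger genes with and without a peak had median lengths of 18483 and 23516 bp and lay a median of 6886 and 6666 bp from the nearest end of another protein-coding gene, and for other genes of the chromosome this distance was 643.5 bp with a peak and 1966 bp without.

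The zinc finger genes were then followed along the chromosome. They were grouped into runs, in which each gene lay within 500 kb of the next and on the same side of the largest gap without protein-coding genes (5.08 Mb, between ZNF254 and UQCRFS1). That gap held 137 LV-HOXA5 peaks of the 472 on the chromosome, and 23 control peaks of 33. This gave 20 runs, and 8 of them with 10 or more genes held 226 of the 250 genes. Before the gap, 6 of 84 genes had a peak within 1 kb, and after it 18 of 166. The other protein-coding genes also had lower shares before the gap. In bins of 5 Mb, these were 5.58% to 12.3% up to 20 Mb and 16.7% to 29.4% from 30 Mb on.

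The run next to the gap, from ZNF101 to ZNF254 (chr19:19668153-24129968), contained 37 genes, among them ZNF91 and ZNF93, which are known to restrain retrotransposons. None of the 37 had an end within 1 kb of an LV-HOXA5 peak (interval 0% to 9.49%, and a count of 0 allows up to 8.11%). Its 4.46 Mb held 3 LV-HOXA5 peaks in all, and the median gene of the run lay 467002 bp from the nearest peak. Only ZNF730 and ZNF254 had a peak inside, with 11 fragments and a 4.92-fold enrichment and with 17 fragments and a 4.76-fold enrichment.

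Another long run, from ZNF175 to ZNF331 (chr19:51571283-53580269), contained 41 genes and also had 0 with a peak within 1 kb (interval 0% to 8.60%, up to 7.32%). Its 2.01 Mb held 3 LV-HOXA5 peaks, 2 of them inside ZNF331. The 14 other protein-coding genes of that stretch had 1 with a peak. By contrast, the run that ends the chromosome, from ZNF264 to ZNF446 (chr19:57191500-58489533), had a peak within 1 kb at 7 of 43 genes (16.3%, interval 6.81% to 30.7%). The run from ZNF628 to ZNF835 had 4 of 17 (23.5%, interval 6.81% to 49.9%), that from ZNF565 to ZNF573, which holds ZNF146, had 4 of 26 (15.4%, interval 4.36% to 34.9%), and that from ZNF414 to ZNF846 had 2 of 14. The runs from ZNF653 to ZNF791 and from ZNF575 to ZNF180 had 2 of 25 and 1 of 23. Among the other protein-coding genes of these stretches, from ZNF264 on and in the order given, such a peak was at 1 of 13, 4 of 25, 1 of 4, 1 of 14, 1 of 4 and 1 of 10. The zinc finger genes had the higher share in the runs from ZNF264, ZNF628 and ZNF414, and the lower share in the rest of this series. The intervals of all 8 runs overlapped, so no order among them is shown beyond the counts.

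**Figure D4:**
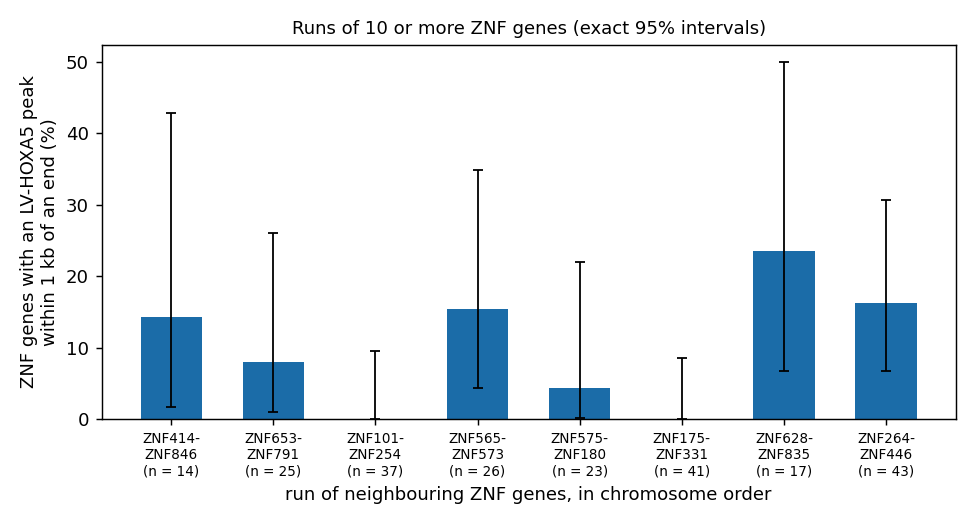
Share of zinc finger genes with an end within 1 kb of an LV-HOXA5 peak, in percent on the vertical axis, for the 8 runs of 10 or more genes in chromosome order; lines are exact 95% binomial intervals. The runs of 37 and 41 genes stand at 0, and the run from ZNF628 to ZNF835 is highest at 23.5%.

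These 2 runs differed from each other in their promoters. The run from ZNF101 to ZNF254 had the lowest median CpG count of the 8 runs, 10 in 300 bases (range 8 to 18, 29 windows), and the longest genes, with a median of 34630 bp. The run from ZNF175 to ZNF331 had a median of 25 CpG (range 14 to 30, 34 windows), above that of the last run of the chromosome (21) and below that of the run from ZNF628 to ZNF835 (29). The first gene of each run with a listed start is shown, as above, for comparison with the genes that had a peak. The listed start of ZNF101 and the stretch before it lie inside the gene.
ZNF101, chr19:19668589-19668838, plus strand: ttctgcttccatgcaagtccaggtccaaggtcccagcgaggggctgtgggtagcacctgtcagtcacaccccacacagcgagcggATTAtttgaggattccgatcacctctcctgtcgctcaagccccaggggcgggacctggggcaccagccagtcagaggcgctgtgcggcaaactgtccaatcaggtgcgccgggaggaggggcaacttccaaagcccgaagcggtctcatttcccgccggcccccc
ZNF175, chr19:51571033-51571282, plus strand: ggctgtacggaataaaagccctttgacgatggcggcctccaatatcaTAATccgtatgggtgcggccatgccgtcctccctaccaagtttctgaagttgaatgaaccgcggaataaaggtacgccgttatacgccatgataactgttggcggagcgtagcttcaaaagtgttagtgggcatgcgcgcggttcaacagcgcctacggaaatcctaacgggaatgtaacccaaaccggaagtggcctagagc

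ZNF101 had 14 CpG and 63.6% G and C in these 250 bases, and ZNF175 had 20 CpG and 52.4%. Each held the TAAT core 1 time, which is as many as or more than 4 of the 6 windows that lay inside a peak.

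In bins of 5 Mb, the zinc finger genes had a lower share than the other genes in 8 of the 11 bins that held any, a higher share in 2, and both were at 0 in 1. The 2 higher bins were 0 to 5 Mb (1 of 5 against 11 of 197) and 5 to 10 Mb (3 of 16 against 13 of 106). Of the 8 lower bins, those from 15 to 20, 30 to 35 and 45 to 50 Mb held only 6, 7 and 3 zinc finger genes, so the tally carries little weight there. Between 50 and 55 Mb, 1 of 42 zinc finger genes (2.38%, interval 0.0603% to 12.6%) and 19 of 114 other genes (16.7%, interval 10.3% to 24.8%) had a peak within 1 kb. Between 40 and 45 Mb these numbers were 1 of 27 (3.70%, interval 0.0937% to 18.97%) and 30 of 109 (27.5%, interval 19.4% to 36.9%). Between 55 and 60 Mb, the bin with the most zinc finger genes, they were 11 of 60 (18.3%, interval 9.52% to 30.4%) and 15 of 75 (20%, interval 11.6% to 30.8%), which is nearly equal. When the shares of the other genes were weighted by the number of zinc finger genes in each bin, they came to 16.8% within 1 kb and 23.2% within 3 kb or inside, close to their unweighted 17.5% and 24.7%. The 8 runs of 10 or more genes spanned 0.970 to 4.46 Mb, less than a bin. This weighting therefore does not match the genes for position within a run, and the part of such position in the gap was not tested. The bin between 20 and 25 Mb held 31 zinc finger genes and 2 other genes, so there the family and the position cannot be told apart.

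**Figure D5:**
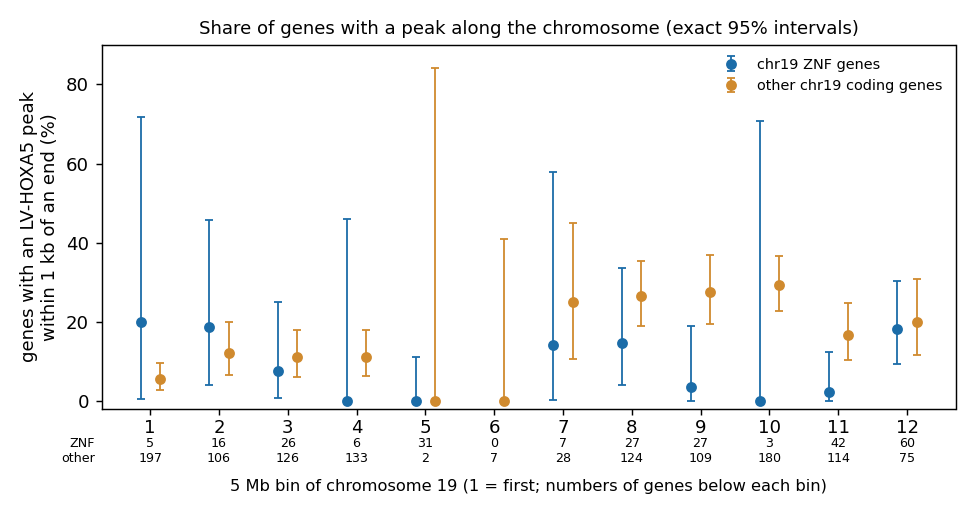
Share of genes with an end within 1 kb of an LV-HOXA5 peak, in percent on the vertical axis, by 5 Mb bin of chromosome 19, for zinc finger genes (blue) and other coding genes (orange); lines are exact 95% binomial intervals and the numbers below each bin count the genes. The blue points lie below the orange ones in bins 9 to 11 and beside them in bin 12.

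The corepressors through which KRAB zinc finger proteins act were examined as a list of 17 genes. Of these, 6 had a gene end within 1 kb of an LV-HOXA5 peak (35.3%, interval 14.2% to 61.7%) and 7 within 3 kb or inside (41.2%, interval 18.4% to 67.1%), beside 13.0% and 20.7% of all protein-coding genes. TRIM28 itself, at the far end of chromosome 19, had a peak that covered an end of the gene (chr19:58544012-58544357) with 24 fragments and a 4.82-fold enrichment. The histone methyltransferase SETDB1 had 15 fragments and a 4.56-fold enrichment, and its partner ATF7IP had 17 fragments and a 5.89-fold enrichment. The HP1 genes CBX1, CBX3 and CBX5 had 17, 28 and 46 fragments and 4.19-, 6.15- and 6.59-fold enrichments at the peak nearest an end. UHRF1 had a peak only inside, 8790 bp from an end, and CHD3, HDAC1, HDAC2, RBBP4, RBBP7, MPHOSPH8, TASOR, PPHLN1, MORC2 and DNMT1 had none. The share of all protein-coding genes lay just below the interval of this short list within 1 kb and inside it within 3 kb or inside, and the list was chosen with earlier results known.

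Chromosome 19 also carries zinc finger genes with other names. Of 17 genes whose symbol begins with ZFP, ZSCAN, ZIM, ZIK, ZKSCAN, PEG3 or MZF1, 2 had a peak within 1 kb (11.8%, interval 1.46% to 36.4%) and 4 within 3 kb or inside (23.5%, interval 6.81% to 49.9%). The strongest was at MZF1, with 53 fragments and a 6.38-fold enrichment over a gene end, followed by ZSCAN5A, with 19 fragments and a 5.39-fold enrichment inside the gene, and ZFP14, with 14 fragments and a 5.03-fold enrichment over a gene end. The intervals of this small set contained the shares of the ZNF genes, of the other genes of the chromosome and of all protein-coding genes alike.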

How the data were processed

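Peaks were called by the authors with MACS 2.2.7.1 in each library alone, on paired-end fragments after removal of duplicates, at a q-value of 0.05 and without a control library. The submitters' processing notes name fastp, Bowtie2, deepTools, MACS2 and ChIPseeker and the build GRCh38. How fragments that align to several places were treated, which bears on genes with near-identical neighbors, is not given in the sources used here. The deposited tables give the position of each peak, the signal at the summit as an unscaled pileup of fragments, the fold enrichment against a local lambda, and −log10 values of p and q (p-value and q-value). The other deposited format held the same 8043 and 635 peaks and was not used.

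Distances were counted between the closer peak edge and either end of a gene of GRCh38.p14, and starts and sequences came from the RefSeq promoter table, which covered 219 of the 250 genes. Exons, introns and untranslated regions were not used here, and the planned count of zinc fingers and KRAB domains was not run for want of protein sequences. The local background was recovered as (pileup + 1) / fold − 1. Intervals are exact 95% binomial (Clopper-Pearson), Poisson or order intervals. A count of 0 was given a limit of 3 counts. The assignment of peaks to genes was tested on simulated positions. The members and lists were chosen with earlier results of these data known. Genes named are the 12 of highest fold within 1 kb, the highest of each run, the 5 of highest fold among those with peaks only inside, ZNF77, the corepressor list and the 3 strongest of other zinc finger names; the remaining names were chosen after their values were seen. Computations used Python 3.11.15, NumPy 2.4.6, pandas 2.3.3, SciPy 1.17.1 and Matplotlib 3.10.9.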

Additional observations from a re-analysis of the deposited data

How the results depend on the processing

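Shares and the median fold enrichment were computed again with a stricter q-value limit (−log10 of at least 3), with peaks no weaker in fold than the list's median, LV-HOXA5 peaks without a control peak, distances from the summit, gene starts alone and, added after the data were seen, without the 4 hyphenated symbols. Of 37 such values, 10 were control shares, which stayed at 0 and which these settings could hardly raise, and 3 could not change because no peak of a zinc finger gene overlapped a control peak. Of the other 24, 20 stayed inside the interval of the main value and 4 did not. All 4 came from the fold limit, which removes about as many peaks as it keeps: zinc finger genes then had 5.20% within 1 kb and 8.80% within 3 kb or inside, and the other genes of chromosome 19 had 8.49% and 11.99%. With starts alone, the zinc finger genes had 13.7% within 1 kb, inside the main interval but near its upper bound. Within 3 kb or inside, starts alone gave 15.5% for zinc finger genes and 23.1% for the others, near the main values. Under the fold limit and with starts alone, the intervals of zinc finger and other genes overlapped at both distances. No paired analysis was possible because each condition had 1 library. Depth limits the control list, as only 5 of 37 peaks would reach its lowest pileup after scaling.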
